A study of Homo sapiens with 2 samples.

Results

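The genes considered are 10 markers of the neuronal cytoskeleton and of neuronal identity, namely the neurofilament subunit genes NEFL, NEFM, NEFH and INA, the microtubule-associated genes STMN2, MAP2 and DCX, the synaptic vesicle gene SYP, the growth cone gene GAP43 and the ubiquitin hydrolase gene UCHL1. They were chosen by symbol, and 9 of the 10 were matched among the 57736 genes listed in each library. NEFL, whose identifier in the annotation used here is ENSG00000277586, was not matched and is not analysed here. RNA-Seq of poly(A)+ RNA gave their levels in HEK293T, an established line derived from human embryonic kidney and expressing the SV40 large T antigen, grown in DMEM with 10% FBS and labelled wild type. By the labels, both libraries, replicates 1 and 2, came from cells heated at 43 °C for 20 min. The cells were then returned to 37 °C for 6 h, and those of each replicate were lysed on their own. The paper that reported these data gives a longer time at 43 °C. Replicate 1 held 22529828 expected counts, which are estimated reads per gene, and replicate 2 held 26890199. Untreated cells are not analysed here, so the values describe the state after recovery and the spread between the libraries, not a response to heat. The labels do not say that the replicates were separate cultures, so p-values between them measure only the spread of these samples, which may be technical.

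As background, neurofilaments are the intermediate filaments of axons. Their light, medium and heavy subunits and alpha-internexin, encoded by INA, assemble together into one filament. Microtubules, the other main scaffold of a neuron, are stabilised in dendrites by MAP2 and in migrating young neurons by doublecortin, the product of DCX, while stathmin-2, the product of STMN2, binds tubulin in growing axons. Synaptophysin, encoded by SYP, is a membrane protein of synaptic vesicles, and GAP43 lies under the membrane of growth cones. UCHL1 hydrolyses small adducts from the end of ubiquitin and is among the most abundant proteins of the brain. The question addressed here is which of these markers the heat-treated cells expressed.

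The markers fell into a detected and a very low group. UCHL1, NEFM, INA, SYP and GAP43 had at least 1 TPM (a transcript level scaled to transcript length and to the library total) in both libraries, while MAP2, NEFH, STMN2 and DCX were below it in both. The 5 detected genes of 9 can be read against 63.8% of 19391 protein-coding genes and 26.3% of all listed genes that passed the same threshold. The median level of the 9 genes was 5.83 TPM, beside 6.19 TPM over all protein-coding genes. Together they held 0.0477% of TPM in replicate 1 and 0.0461% in replicate 2, of which UCHL1 alone made up 83.2% and 79.7%.

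Among the neurofilament subunits, NEFM, which encodes the medium subunit, had the highest level. It was at 45.14 TPM in replicate 1 and 56.50 in replicate 2 (50.8 ± 8.03, SD, n = 2), from 1933 and 2884 expected counts. INA was at 18.81 TPM in replicate 1 and 20.95 in replicate 2 (19.9 ± 1.51), from 1092 and 1384 counts. NEFH, which encodes the heavy subunit that is typical of mature, large-calibre axons, was at 0.25 TPM in replicate 1 and 0.23 in replicate 2 (0.240 ± 0.014), from only 17 and 18 counts. The subunit genes therefore did not overlap in level in either library. NEFM exceeded INA by 2.40-fold in replicate 1 and 2.70-fold in replicate 2, and exceeded NEFH by 181-fold and 246-fold.

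All microtubule-associated members were low. MAP2 was at 0.44 TPM in replicate 1 and 0.83 in replicate 2 (0.635 ± 0.276, SD, n = 2), from 15 and 31 counts. STMN2 had 1 expected count in each library, listed as 0.03 and 0.06 TPM, and DCX also had 1 in each, listed as 0.01 TPM in both. A count of 0 would allow up to 3 counts, so STMN2 and DCX were at or below the limit of detection in both libraries. For DCX, 3 counts correspond to 0.0182 TPM in replicate 1 and 0.0160 in replicate 2, and for STMN2 to 0.0756 and 0.192 TPM. These limits cover counting error only.

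The vesicle, growth cone and enzyme genes were all detected. UCHL1 was at 397.06 TPM in replicate 1 and 367.37 in replicate 2 (382 ± 21.0, SD, n = 2), from 6052 and 6321 counts, and lay at rank 289 of all listed genes by mean TPM, above 98.7% of protein-coding genes. SYP was at 9.71 TPM in replicate 1 and 9.18 in replicate 2 (9.45 ± 0.37), from 414 and 434 counts. GAP43 was at 5.99 TPM in replicate 1 and 5.66 in replicate 2 (5.83 ± 0.23), from 180 and 193 counts. UCHL1 thus stood well above the others, whereas SYP and GAP43 lay near the middle of protein-coding genes, above 56.2% and 49.3% of them.

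**Figure D1:**
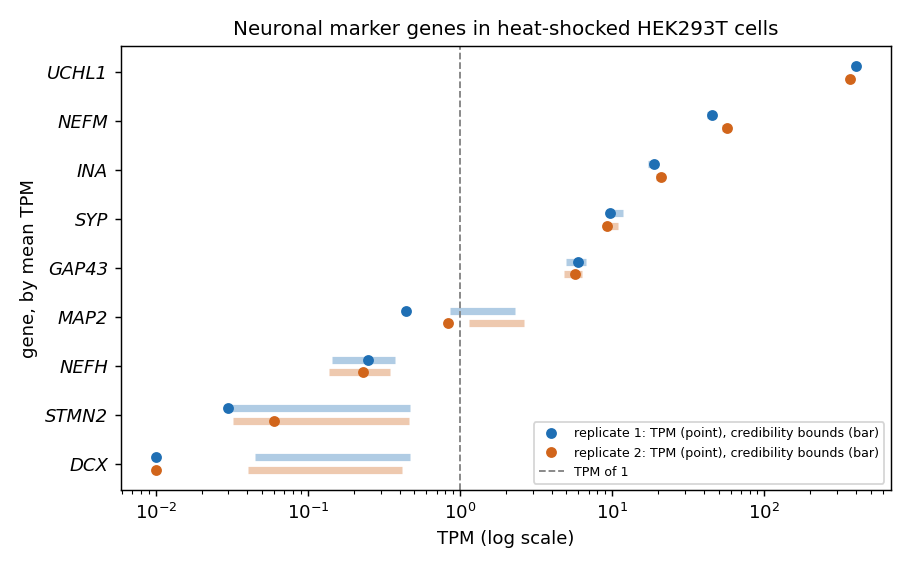
Level of each matched gene in TPM (log scale) in replicate 1 and replicate 2, with points for TPM, bars for the credibility bounds of the quantifier and a dashed line at 1 TPM. UCHL1, NEFM, INA, SYP and GAP43 lie right of the line in both libraries, and the points of MAP2 and DCX lie left of their own bars.

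Ordered by mean level, the genes ran UCHL1, NEFM, INA, SYP, GAP43, MAP2, NEFH, STMN2 and DCX, and this order was the same in both libraries. Neighbours were called separated when the lowest credibility bound of the higher gene, over both libraries, exceeded the highest bound of the lower gene, and 6 of the 8 neighbouring pairs were. NEFH and STMN2 were not separated, nor were STMN2 and DCX. With exact Poisson intervals of the counts, which cover counting error only, 5 pairs were separated, and MAP2 and NEFH no longer were, since MAP2 reached down to 0.244 TPM and NEFH up to 0.400 TPM. Neighbours among the 4 low genes were therefore not separated when these intervals were scaled to TPM. In counts alone, the intervals of NEFH began at 9.90 in replicate 1 and 10.7 in replicate 2. Those of STMN2 ended lower, at 5.57 in both. The closest pair among the detected genes was SYP over GAP43, at 1.62-fold in each library.

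The credibility bounds did not always contain the TPM. For MAP2 they ran from 0.853 to 2.29 TPM in replicate 1 and from 1.14 to 2.63 in replicate 2, so that its TPM lay below the lower bound in both. The posterior mean, a second level given by the quantifier, was 1.54 and 1.86 TPM for MAP2. The posterior SD of its count, the spread from the placement of reads, was 0 in both libraries. DCX, with 1 count in each library, had a posterior mean of 0.22 and 0.20 TPM. By this mean 6 of the 9 genes would be detected, beside 34.3% of all listed genes, with the MAP2 counts unchanged at 15 and 31. Why the posterior mean exceeded the TPM was not tested. DCX also lay below its lower bounds of 0.0450 and 0.0403 TPM. UCHL1 lay slightly above its upper bounds, which were 395.1 TPM in replicate 1 and 367.1 in replicate 2. Among 1803 tested protein-coding genes with a mean TPM under 1, 28.95% lay below their lower bound in replicate 1 and 25.1% in replicate 2. MAP2 is listed with 16 transcripts and had a summed count of 46, whereas NEFH, with 1 transcript and a summed count of 35, lay inside its bounds in both libraries.

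The lengths to which the levels were scaled also differed between genes. The tables give, for each gene, a length averaged over its transcripts and weighted by their estimated abundance. For MAP2 it was 1935 bases in replicate 1 and 1837 in replicate 2, although the 16 listed transcripts run from 414 to 9711 bases in the annotation, and 6 of them exceed the mean of 1886 bases. If all reads of MAP2 came from the longest transcript, its level would be 0.120 TPM, 5.30-fold lower, and below NEFH, which would be at 0.240 TPM, so that the order of this pair would reverse. For UCHL1 the weighted length was 884 and 877 bases, and placing all reads on its longest transcript of 1578 bases would give 208 TPM and leave it the highest member. NEFM had a weighted length of 2396 bases in replicate 1 and 2507 in replicate 2, against a longest transcript of 3271 bases, with which its level would be 38.0 TPM. INA and NEFH have a single transcript each, so their lengths were fixed. The single reads of STMN2 were assigned to transcripts of 2223 bases in replicate 1 and 799 in replicate 2, so its TPM differed between libraries at the same count.

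**Figure D2:**
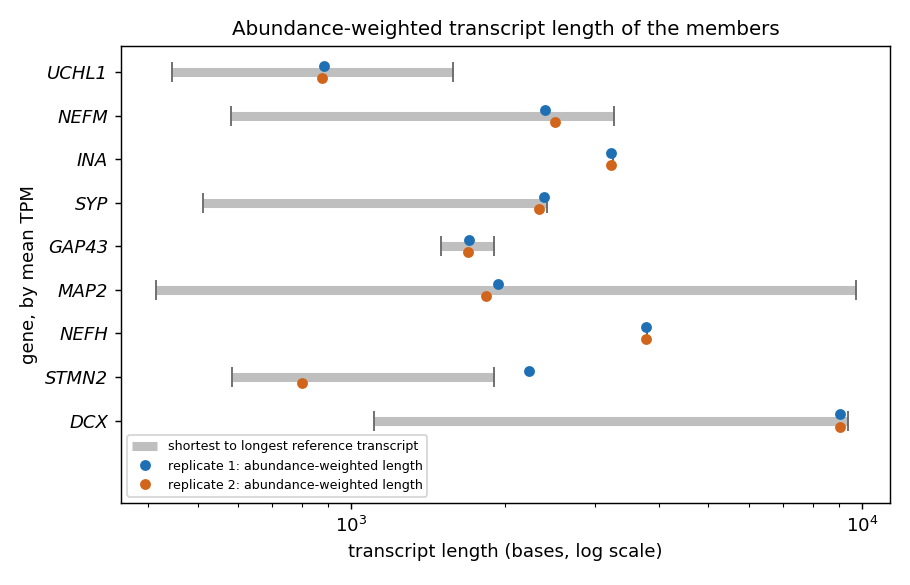
Abundance-weighted transcript length in bases (log scale) of each gene in replicate 1 and replicate 2, over a grey bar from the shortest to the longest of its listed transcripts in the reference annotation, whose release differs from that of the tables. MAP2 at 1935 and 1837 bases lies far below its longest transcript of 9711 bases, and STMN2 in replicate 1 lies beyond its bar.

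In the annotation of GRCh37, the build of the tables, UCHL1 (ENSG00000154277) lies on chromosome 4 at 41258430 to 41270472, INA (ENSG00000148798) on chromosome 10 at 105036895 to 105050103, and GAP43 (ENSG00000172020) on chromosome 3 at 115342357 to 115440337. SYP (ENSG00000102003) and DCX (ENSG00000077279) lie on chromosome X at 49044268 to 49056677 and 110537007 to 110655657. MAP2 (ENSG00000078018) lies on chromosome 2 at 210288771 to 210598871 and NEFH (ENSG00000100285) on chromosome 22 at 29876207 to 29887379. All matched genes are protein-coding, and each value covers the exons of all listed transcripts. How strand was treated when reads were counted is not stated in the labels or methods. Whether reads of overlapping genes were told apart by strand is therefore not known. INA shares 468 bases with NT5C2 on the opposite strand, which had 936 and 1272 counts. The posterior SD of the count of INA, the spread the quantifier gave to the placement of its reads, was 0 in both libraries. The quantifier thus left no uncertainty in the placement of the INA reads. NEFM shares 960 bases with the antisense lncRNA gene ENSG00000272163, which had at most 10.3 counts in a library. SYP-AS1, antisense to SYP, had 1.04 and 1.01 counts, and UCHL1-DT, which overlaps the start of UCHL1 on the opposite strand, had 0 in both. Among all members this SD was at most 3.68 reads, for NEFM in replicate 2.

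The sequences before the transcription start were compared between high and low genes, because CG-rich and CG-poor starts are common classes of human promoter. RefSeq windows on GRCh38 were matched for 6 of the 9 genes, not for NEFM, NEFH and STMN2, and the 250 bases before the start are shown for the 4 detected genes among them and for the first of 3 DCX windows, 5′ to 3′ on the strand of the gene, with each CG dinucleotide in capitals. The motif CG reads the same on both strands.
UCHL1, chr4:41256678-41256927, plus strand: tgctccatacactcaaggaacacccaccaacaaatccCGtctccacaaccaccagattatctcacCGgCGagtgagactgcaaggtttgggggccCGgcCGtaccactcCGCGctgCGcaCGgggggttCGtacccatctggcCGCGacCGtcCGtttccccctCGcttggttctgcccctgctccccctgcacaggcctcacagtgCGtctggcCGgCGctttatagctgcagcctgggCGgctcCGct
INA, chr10:103276888-103277137, plus strand: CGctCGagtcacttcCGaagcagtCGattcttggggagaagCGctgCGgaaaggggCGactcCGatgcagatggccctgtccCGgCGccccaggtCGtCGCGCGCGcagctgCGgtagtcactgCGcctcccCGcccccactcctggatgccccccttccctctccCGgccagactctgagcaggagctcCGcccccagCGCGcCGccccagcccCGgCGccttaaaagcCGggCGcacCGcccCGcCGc
SYP, chrX:49200194-49200443, minus strand: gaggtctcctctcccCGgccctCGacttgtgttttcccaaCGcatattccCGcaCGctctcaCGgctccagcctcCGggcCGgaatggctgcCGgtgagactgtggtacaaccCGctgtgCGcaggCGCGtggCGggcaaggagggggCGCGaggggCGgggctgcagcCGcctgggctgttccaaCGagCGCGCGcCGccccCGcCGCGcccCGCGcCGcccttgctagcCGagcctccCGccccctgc
GAP43, chr3:115623260-115623509, plus strand: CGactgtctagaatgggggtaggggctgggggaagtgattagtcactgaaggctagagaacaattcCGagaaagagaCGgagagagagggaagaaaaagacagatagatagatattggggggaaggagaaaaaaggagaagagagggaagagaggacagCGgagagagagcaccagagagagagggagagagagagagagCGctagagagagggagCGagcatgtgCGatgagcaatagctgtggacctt
DCX, chrX:111412193-111412442, minus strand: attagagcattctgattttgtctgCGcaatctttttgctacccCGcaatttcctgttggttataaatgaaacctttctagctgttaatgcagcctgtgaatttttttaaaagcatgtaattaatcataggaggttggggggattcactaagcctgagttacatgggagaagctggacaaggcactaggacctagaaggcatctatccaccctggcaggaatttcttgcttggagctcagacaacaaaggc

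Across 35114 such windows of all genes the median number of CG was 11. SYP had 31, INA 30 and UCHL1 20, more than in 89.1%, 87.6% and 67.6% of windows. GAP43, although detected, had 7, more than in 41.1% of windows. The 3 windows of DCX had 2, 1 and 3, and the 3 of MAP2 had 4, 6 and 8, below the median in each. Of the genes read, UCHL1, INA and SYP thus lay above the median and GAP43, MAP2 and DCX below it, a description of 6 genes without a test.

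The libraries were then compared, to see how far the level of each gene was reproduced. An exact two-sided binomial test on the counts of each gene, with Benjamini-Hochberg adjustment over all genes tested, compares these libraries and not conditions. Of 7 members with a summed count of at least 10, 3 passed the threshold of 0.05, beside 43.1% of 19714 genes, a share near that background. NEFM was higher in replicate 2, with a log2 ratio of 0.27 and an adjusted p of 6.5e-10 by the exact test. UCHL1 was higher in replicate 1, with a log2 ratio of -0.24 and an adjusted p of 2.4e-19 by the exact test. SYP had a log2 ratio of -0.24 with an adjusted p of 0.044 by the same exact test. These differences were small, at 1.21-fold, 1.18-fold and 1.18-fold. MAP2 had the largest log2 ratio, 0.72, but its exact 95% interval ran from -0.19 to 1.74 and its adjusted p in the exact test was 0.19. INA, GAP43 and NEFH had log2 ratios of 0.04, -0.20 and -0.22 and did not pass.

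Ratios between these libraries moved with the GC content of the transcripts across all genes, so the members were also read against that trend. At the GC content of UCHL1, 53.1%, the median gene had a log2 ratio of -0.15, and at that of SYP, 56.8%, one of -0.21. With the trend removed, SYP had a log2 ratio of -0.03 and an adjusted p of 0.907 in the exact test, and UCHL1 one of -0.10, still past the threshold with an adjusted p of 0.0014 by the exact test. NEFM then stood at 0.45, and INA passed with 0.15 and an adjusted p of 0.040 by the exact test, beside 28.8% of 19048 genes. By this measure NEFM and INA were both higher in replicate 2. For INA this depended on the trend removed. With a trend in transcript length removed instead, its log2 ratio was -0.08 and its adjusted p 0.330 in the exact test. NEFM then stayed at 0.25. With the exact test of edgeR in place of the binomial test, and replicate variation (BCV) assumed to be 0.1, 0 members passed at an adjusted p under 0.05 and 0 at an unadjusted one, beside 7.24% of all tested genes adjusted and 16.2% unadjusted.

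**Figure D3:**
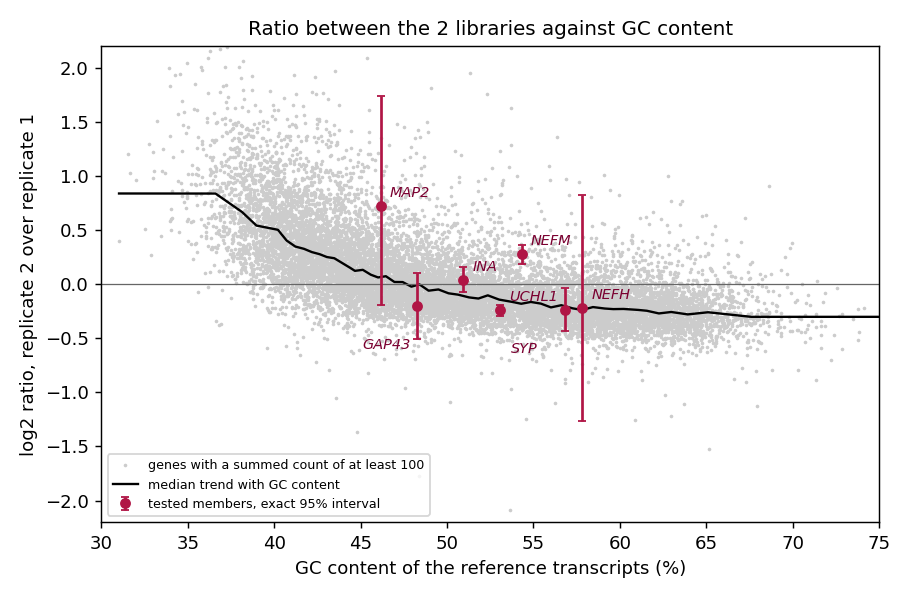
Log2 ratio of replicate 2 over replicate 1 against the GC content (%) of the reference transcripts, with a grey point for each gene with a summed count of at least 100, a black line for the median trend and red points with exact 95% intervals for the 7 tested members. Of 13544 grey genes, 10 lie outside the axes, and NEFM stands above the line while SYP lies on it.

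The relatives of each member were measured for comparison, from lists of related genes. In the filament, microtubule-associated, synaptic, growth cone and neuronal regulator lists together, 39 of 58 matched genes (67.2%) were detected. This share was near the 63.8% of all protein-coding genes. Of 6 other intermediate filament genes of nerve, glia and muscle, 5 were detected. VIM, which encodes vimentin of mesenchymal and many cultured cells, was at 683.67 TPM in replicate 1 and 610.70 in replicate 2, exceeding NEFM by 15.1-fold and 10.8-fold. NES, the gene of the neural progenitor filament nestin, was at 4.34 ± 0.297 TPM (SD, n = 2). DES, of muscle, was the lowest at 0.355 ± 0.134 TPM. PRPH, which encodes peripherin of peripheral neurons and was singled out after its values were seen, was at 3.96 and 2.86 TPM, well below NEFM.

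Of 13 other microtubule-associated genes, 11 were detected, and STMN4 and MAP6 were not. STMN1, the stathmin gene of proliferating cells, was at 490.65 TPM in replicate 1 and 464.51 in replicate 2, while STMN2 had a single read in each. MAP4, the microtubule-associated protein of most tissues, was at 173.9 ± 4.38 TPM (SD, n = 2), and STMN4 was the lowest of the list at 0.05 TPM and 0. Further relatives were singled out after their values were seen. MAP6, which encodes a protein that stabilises neuronal microtubules, was at 0.73 and 0.74 TPM, near the level of MAP2. MAPT, the gene of the axonal protein tau, was at 58.37 and 54.93 TPM, MAP1B at 26.74 and 39.25 TPM, and STMN3 at 52.04 and 45.41 TPM, against 0.44 and 0.83 TPM for MAP2. DCLK1, the closest relative of DCX in this list, was at 2.57 and 3.52 TPM.

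Of 20 other synaptic vesicle and release genes, 13 were detected. SYNGR1, which encodes the vesicle protein synaptogyrin-1, was at 52.65 and 41.46 TPM, and VAMP2, of the vesicle fusion machinery, at 40.73 and 42.51 TPM, both above SYP. SLC17A6, a vesicular glutamate transporter gene, had 0 counts in both libraries. SNAP25, the neuronal plasma membrane partner of VAMP2, was singled out after its values were seen and had 0 and 7 counts. SYPL1, a relative of SYP also singled out in this way, was at 12.57 and 17.84 TPM.

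Of 7 other matched growth cone and axon surface genes, 4 were detected, namely MARCKSL1, ROBO1, NCAM1 and BASP1. MARCKSL1 was the highest at 293 ± 22.8 TPM and ROBO1, an axon guidance receptor gene, followed at 89.7 ± 20.9 (SD, n = 2). BASP1, whose product resembles that of GAP43 in place and charge, was at 42.16 and 43.60 TPM, 7.04-fold and 7.70-fold above GAP43. DCC, a netrin receptor gene, was the lowest with 1 and 0 counts. MARCKS was not matched and is not analysed here. All 3 other ubiquitin C-terminal hydrolase genes were detected, with UCHL5 at 68.27 and 108.76 TPM, UCHL3 at 59.84 and 79.57 TPM and BAP1, the lowest by the mean though not in replicate 1, at 61.69 and 55.76 TPM. UCHL1 exceeded UCHL3 by 6.64-fold in replicate 1 and 4.62-fold in replicate 2.

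Markers of other cell types were read as a check of the label. Of 14 matched genes of embryonic kidney and kidney epithelium, 7 were detected. The shares detected were 50% here, 55.6% in the glial list and 30% in the adrenal chromaffin and sympathetic list. Over all protein-coding genes 63.8% passed the same threshold, so none of these lists exceeded that background. The highest were KRT18, a simple-epithelium keratin gene, at 52.6 ± 7.78 TPM and the podocyte surface gene PODXL at 37.7 ± 0.65 (SD, n = 2), while UMOD and CDH16, of the mature tubule, had 0 counts. The nephron progenitor gene SIX2 was at 15.9 ± 2.39 TPM. The other genes of this list that were not detected were EPCAM at 0.785 TPM, AQP1 at 0.540, NPHS1 at 0.155, PAX8 at 0.050 and SLC12A1 at 0.015. SIX2 and these genes were singled out after their values were seen. Of 9 glial genes, 5 were detected, with OLIG2, of oligodendrocyte precursors, at 5.13 ± 0.495 TPM (SD, n = 2), and S100B had 0 counts. Of 10 adrenal chromaffin and sympathetic genes, 3 were detected, with GATA3 at 43.0 ± 2.72 TPM and ISL1 at 6.47 ± 0.424, while TH, the gene of the first enzyme of catecholamine synthesis, had 0 counts in both libraries. None of 7 adrenal cortex genes reached 1 TPM in both libraries. NR5A1 was the highest of them at 0.215 ± 0.120 TPM and STAR followed at 0.045 ± 0.007, while CYP11A1, CYP21A2 and MC2R had 0 counts.

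**Figure D4:**
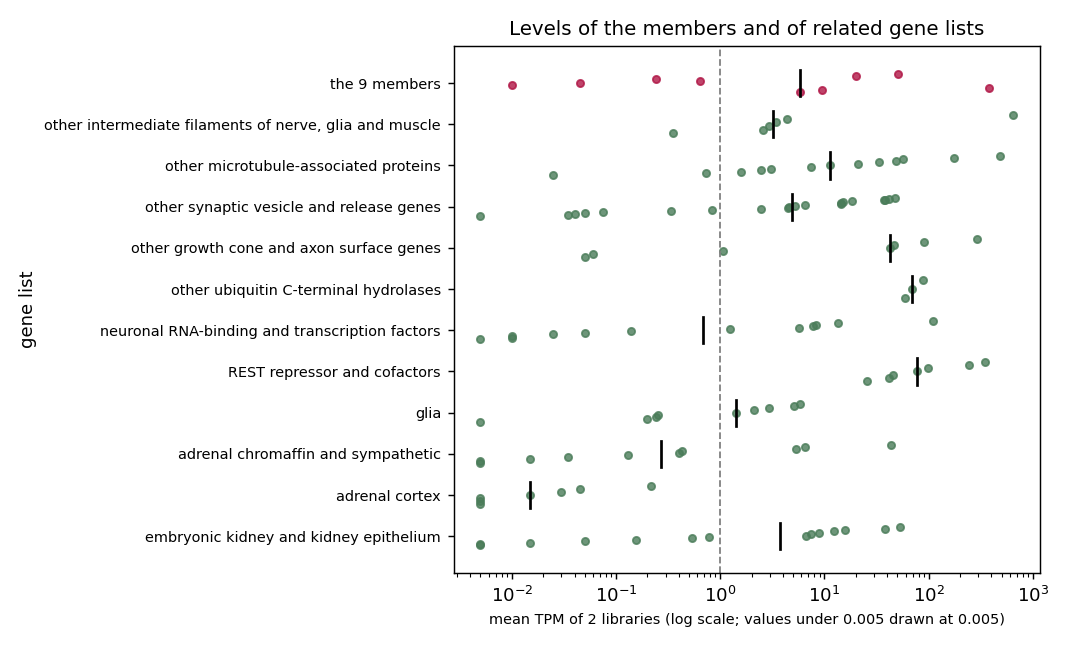
Mean TPM of both libraries (log scale) of each gene in the 9 members and the related lists, with a black bar at the median of each list and a dashed line at 1 TPM, genes at 0 being drawn at the left edge. The members spread from 0.010 TPM for DCX to 382 TPM for UCHL1, and the adrenal cortex list lies entirely left of the line.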

How the data were processed

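Poly(A)+ RNA of 2 HEK293T libraries, given by the labels as replicates of 1 heat-shock group, was sequenced by the authors. The labels list Trimmomatic 0.36, STAR 2.6.1c and RSEM 1.3.1 on hg19, while the methods name featureCounts, and the tables have the columns of RSEM. The deposited tables hold expected counts, in which multi-mapped reads are shared among genes. The deposited TPM divide reads by transcript length before scaling each library to one total, and the deposited FPKM divide by length and by the reads of the library. A series table was read as the authors' pooled values.

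The members and lists were chosen with earlier results of these data known. Symbols came from GENCODE v44lift37, matched by identifier, and 9 of 10 members were found. A gene was called detected where both libraries reached a TPM of 1. The binomial test used rounded counts, library shares from edgeR 4.0.16 TMM factors, genes whose counts summed to 10 or more and a pseudocount of 0.5 for ratios, and was tested on simulated data. GC and length trends were medians of 50 classes. With 1 group, the DESeq2 comparison of the methods could not be run, and DESeq2 1.42.0 gave size factors for an alternative. In each list, the 2 highest genes and the lowest were named, beside REST and genes singled out after their values were seen, and some list genes are not reported here. Among these are PRPH, MAPT, MAP1B, MAP6, STMN3, DCLK1, SNAP25, SYPL1, NCAM1, BASP1, UCHL3, SIX2 and genes with 0 counts. Likeness of pattern was not used to name genes, since 2 libraries give no pattern.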

Additional observations from a re-analysis of the deposited data

How the results depend on the processing

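No paired analysis was possible because all libraries belong to a single group. Depth limits the low genes, since counting error alone was 25.8% for MAP2 in replicate 1 and 100% for STMN2 and DCX. The number of detected members, 5, stayed within 1.5 times under every alternative tried. It was 7 with a TPM of at least 0.1, beside 38.0% of all listed genes, and with a count of at least 10, beside 29.0%. By the posterior mean TPM it was 6, beside 34.3%. Under the other alternatives, among them without replicate 1 or without replicate 2, it was 5, beside 18.7% to 29.7%. The number of members differing between the libraries, 3, was 1 with the length trend removed (beside 41.4% of all tested genes), where UCHL1 had a log2 ratio of -0.05 and an adjusted p of 0.118 in the exact test, and 0 by the edgeR exact test with an assumed coefficient of variation of 0.1 (0 at an unadjusted p under 0.05, beside 7.24% of genes adjusted and 16.2% unadjusted). It was 2 or 3 under the other scalings, filters and counts, beside 25.5% to 54.1% of genes, as library totals or a summed count of at least 1 took SYP out. The 54 rank values by CPM, FPKM, posterior mean TPM, the pooled table and each library alone equalled the reported ranks. Most of these could hardly differ, since FPKM orders genes as TPM does within a library. The pooled table holds the reads of the same libraries, and each library alone repeats the shared order already given. CPM and posterior mean TPM are the main rankings that could have differed. Levels on the longest transcript were not among the 54, and there MAP2, at 0.120 TPM, fell below NEFH, at 0.240. Levels with all reads on the longest transcript, posterior mean TPM and the pooled table were chosen after seeing the data. The cause of these changes was not tested.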

Other observations

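Regulators of neuronal genes were measured beside the markers. REST, which encodes a repressor of neuronal genes in other cells, was at 28.72 TPM in replicate 1 and 54.75 in replicate 2 (41.7 ± 18.4, SD, n = 2), with a log2 ratio of 0.80 and an adjusted p of 6.3e-62 in the exact binomial test between the libraries with Benjamini-Hochberg adjustment. Measured against the GC trend, REST stood at 0.52 on the log2 scale. All 7 genes of REST and its cofactors were detected, with HDAC2 at 344 ± 68.2 TPM, HDAC1 at 242 ± 2.91 and RCOR1, the lowest, at 25.8 ± 3.68.

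Of 12 neuronal RNA-binding and transcription factor genes, 6 were detected (50%), beside 63.8% of all protein-coding genes. RBFOX2, a splicing regulator gene also active outside neurons, was at 110 ± 4.14 TPM and NOVA1, of neuronal splicing, at 13.5 ± 2.18 (SD, n = 2). RBFOX1 had 0 counts in both libraries. Chosen after their values were seen, the neuronal ELAV genes differed from each other, with ELAVL2 at 6.45 and 8.94 TPM, ELAVL3 at 0.06 and 0.04 TPM and ELAVL4 at 0 and 0.02 TPM.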
